A study of Mus musculus with 96 samples.

Results

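The 8 genes followed here, out of 25095 gene symbols in the tables, encode lipases, a lipase regulator and proteins of lipoprotein binding and fatty acid uptake: Lpl, Lipc, Angptl4, Vldlr, Cd36, Fabp1, Fabp4 and Gpihbp1. They were picked by name, and where several transcripts carried a symbol, the one of highest mean was used. RNA-seq was performed on hepatocytes and liver macrophages (LMs) isolated from male C57BL/6J mice that had eaten a high-fat, high-sucrose diet for 4 weeks, an obesogenic diet that causes fatty liver. The 96 libraries covered 4 genotypes, 2 cell preparations and 4 zeitgeber times (ZT, hours after lights on: ZT4, ZT10, ZT16 and ZT22), with 3 libraries in each of the 32 groups. The comparisons asked how loss of REV-ERBα and REV-ERBβ, nuclear receptors that repress transcription in the clock, from hepatocytes, without and with loss of SCAP, altered these genes in either preparation. All 8 genes exceeded 5 RPKTM in at least 3 libraries of all 4 tables and therefore entered every limma test. The rank test for rhythm within a genotype needed 2 libraries above 5 RPKTM, which Vldlr lacked in RevScapTKO LMs. RPKTM is RPKM, reads per kilobase of transcript and library size, multiplied by 10, and levels of different genes can be compared on it because it is scaled by length.

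Every group received an adeno-associated virus using the hepatocyte-specific TBG promoter, so that macrophages were not targeted, and it was injected at 8 weeks of age. Mice labelled Control received the virus encoding GFP, and which floxed alleles they carried is not given in the sources used here. Libraries labelled RevDKO came from floxed mice given the virus encoding CRE to delete Rev-erbα and Rev-erbβ. Those labelled RevScapTKO additionally lost Scap, the escort protein that SREBP transcription factors need for activation, and those labelled ScapKO lost Scap alone. These names follow the sample titles, and the genotype field writes ReverbhDKO, Reverb/ScaphTKO and ScaphKO. Nothing in the labels ties the 3 libraries of a group to separate mice, so p-values measure the spread between libraries, although the study calls them biological replicates. The Control, RevDKO and RevScapTKO libraries of a cell preparation shared a table, whereas ScapKO libraries were normalised on their own, and ScapKO levels were therefore read only within themselves.

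The whole-gene levels did not show the deletion of the REV-ERBs, although the study reports a marked reduction of both transcripts in hepatocytes. The study's figure for this gives relative mRNA expression, with group sizes other than those of these libraries. In hepatocytes, Nr1d1 (REV-ERBα) averaged 90.7 ± 119 RPKTM (SD, n = 12) in libraries labelled Control and 138 ± 108 (SD, n = 12) in those labelled RevDKO, and its level was higher by 1.55 on the log2 scale (limma, adjusted p = 8.87e-05). Nr1d2 (REV-ERBβ) averaged 228 ± 141 (SD, n = 12) in Control and 312 ± 116 (SD, n = 12) in RevDKO. A sum over all exons does not test removal of a floxed exon, and which exons were floxed is not given in the sources used here, so the genotype names are those of the labels. Arntl (BMAL1), a gene that REV-ERBs repress, averaged 60.8 ± 45.6 (SD, n = 12) in Control and 139 ± 12.3 (SD, n = 12) in RevDKO hepatocytes. Scap averaged 495, 536 and 209 RPKTM in Control, RevDKO and RevScapTKO. The 12 ScapKO libraries titled as hepatocytes carry a macrophage label in the cell type field, but all 10 hepatocyte markers were present and their score (mean log2 level) was 14.7 against 5.85 for the macrophage markers, and they are treated as hepatocytes.

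Both preparations contained RNA of other cells. The 12 macrophage markers were all present in hepatocyte libraries, with summed levels of 262 to 3445 RPKTM (median 957) in Control, 455 to 2644 (median 1186) in RevDKO and 1034 to 6690 (median 3167) in RevScapTKO. The defining markers Clec4f and Csf1r were higher in RevScapTKO than in RevDKO hepatocytes by 1.28 and 1.24 on the log2 scale (limma, adjusted p = 7.39e-05 and 0.00018). The 10 endothelial markers had median sums of 1327, 1526 and 2454 RPKTM, and the 6 stellate markers 817, 1141 and 2571. The 4 adipocyte markers summed to at most 14.6 RPKTM, and Adipoq was listed at 0 in all but 1 of these 36 hepatocyte libraries. In LM libraries the 10 hepatocyte markers had higher median sums (97643, 85921 and 99654 RPKTM) than the 12 macrophage markers (19791, 9968 and 10702). In such bulk libraries, fewer cells of a type and less RNA per cell cannot be told apart. Among LM libraries of the 3-genotype table, 6 had a mean correlation with the others under 0.9, of which 5 were RevDKO.

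Lipoprotein lipase, the product of Lpl, hydrolyses the triglyceride of circulating lipoproteins at the capillary wall, and the liberated fatty acids are taken up by the tissue behind it. GPIHBP1 carries the enzyme across the endothelium and anchors it there, and ANGPTL4 inactivates it. Hepatic lipase (Lipc) acts on lipoprotein remnants and high-density lipoproteins in the liver sinusoids. The VLDL receptor binds triglyceride-rich particles, CD36 transports long-chain fatty acids across the plasma membrane, and FABP1 and FABP4 carry them in the cytosol, FABP1 mainly in hepatocytes and enterocytes and FABP4 mainly in adipocytes, macrophages and endothelium. The adult hepatocyte is known for abundant Fabp1 and Lipc and for low Lpl, which in the liver is chiefly a Kupffer cell transcript.

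Control hepatocytes followed that order. The median level over the 12 libraries was 3703 RPKTM for Fabp1, 554 for Lipc, 241 for Angptl4, 227 for Cd36, 37.7 for Gpihbp1, 31.0 for Lpl, 14.97 for Vldlr and 12.9 for Fabp4. Fabp1 (lowest library 1567) stood above every library of Lipc (476 to 767). Lipc averaged 577 ± 85 RPKTM (SD, n = 12) and Angptl4 271 ± 124, and their ranges touched only through the highest Angptl4 library (566). Cd36 averaged 249 ± 125 and Gpihbp1 38.8 ± 19.5, a gap that also exceeded the SDs. Between Angptl4 and Cd36, Gpihbp1 and Lpl, Lpl and Vldlr, and Vldlr and Fabp4, the gap of the means was smaller than the larger SD.

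In the mm9 build of the tables, Lpl lies at chr8:71404454-71430831 and Lipc at chr9:70645935-70782615. Angptl4 lies at chr17:33911845-33918520, Vldlr at chr19:27291510-27328721, Cd36 at chr5:17287508-17341714, Fabp1 at chr6:71149873-71155028, Fabp4 at chr3:10204343-10208616 and Gpihbp1 at chr15:75427060-75428643. The intervals span the whole transcript, exons and introns included, and ScapKO LMs used another Vldlr transcript.

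Upstream DNA is shown for genes whose mean level changed most or that carry a receptor element, namely Lpl, Cd36, Lipc and Fabp1. For each, 250 bases were read from the mouse genome build of the tables (mm9). They precede the earliest annotated start within 300 bases of the start of the transcript used. Other transcripts of Lipc start farther upstream (base 70800028), as do others of Cd36 (17355610 and 17394777), and the DNA before those starts was not read. Capitals mark AGGTCA, the hexamer that REV-ERBs and many other nuclear receptors bind, or its reverse complement TGACCT.

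Lpl promoter (chr8:71404140-71404389, + strand): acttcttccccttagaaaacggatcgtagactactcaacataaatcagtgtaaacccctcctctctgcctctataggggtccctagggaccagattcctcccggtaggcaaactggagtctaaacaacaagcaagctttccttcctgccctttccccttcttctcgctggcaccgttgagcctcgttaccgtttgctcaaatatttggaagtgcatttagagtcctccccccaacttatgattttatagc
Cd36 promoter (chr5:17341715-17341964, - strand): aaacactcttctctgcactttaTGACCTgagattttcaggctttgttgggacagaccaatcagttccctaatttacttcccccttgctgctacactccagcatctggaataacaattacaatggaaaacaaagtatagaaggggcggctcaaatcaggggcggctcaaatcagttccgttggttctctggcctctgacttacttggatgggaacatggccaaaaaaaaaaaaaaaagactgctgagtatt
Lipc promoter (chr9:70782616-70782865, - strand): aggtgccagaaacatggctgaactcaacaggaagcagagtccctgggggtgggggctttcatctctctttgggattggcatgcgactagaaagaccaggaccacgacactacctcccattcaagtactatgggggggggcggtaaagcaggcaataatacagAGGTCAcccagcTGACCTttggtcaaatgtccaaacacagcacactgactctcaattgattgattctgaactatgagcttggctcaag
Fabp1 promoter (chr6:71149571-71149820, + strand): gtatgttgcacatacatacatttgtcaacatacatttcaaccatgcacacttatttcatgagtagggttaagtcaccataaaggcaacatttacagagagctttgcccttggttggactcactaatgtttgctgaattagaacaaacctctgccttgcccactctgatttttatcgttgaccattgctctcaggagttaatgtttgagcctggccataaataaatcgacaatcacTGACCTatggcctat

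The hexamer was found on either strand in the promoters of Lipc, Cd36 and Fabp1, which is 3 of 8, against 11.7% of the 13308 promoters read. The Lipc promoter held it on both strands, at 88 to 83 and 76 to 71 bases upstream. That of Cd36 held it at 228 to 223 bases and that of Fabp1 at 15 to 10 bases upstream. None of the 8 promoters held CACGTG (E-box, found in 7.96% of promoters), TCACNCCAC (a sterol response element, 1.01%), AGGTCANAGGTCA (0.0526%) or the longer REV-ERB monomer motif (0.255%), all searched on both strands. The hexamer is contained in AGGTCANAGGTCA and overlaps the monomer motif. Of the 250 bases read for Vldlr, 179 lie in an annotated exon, and those of the other 7 genes hold none. These matches describe letters and do not show binding.

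In hepatocytes, Lpl carried the largest difference in mean level of the 8 genes between RevDKO or RevScapTKO and Control. In Control hepatocytes, it measured 19.1, 17.4 and 49.0 RPKTM at ZT4, 24.1, 9.28 and 17.1 at ZT10, 26.9, 35.1 and 51.4 at ZT16, and 79.3, 81.6 and 58.1 at ZT22. In RevDKO hepatocytes, it measured 368, 348 and 340 at ZT4, 352, 168 and 254 at ZT10, 128, 221 and 168 at ZT16, and 119, 135 and 125 at ZT22. In RevScapTKO hepatocytes, it measured 77.0, 87.5 and 139 at ZT4, 75.9, 163 and 112 at ZT10, 210, 156 and 115 at ZT16, and 141, 189 and 155 at ZT22. Every RevDKO library was above every Control library, and the gap was widest in the light phase and narrowest at ZT22. RevScapTKO libraries lay between the other genotypes at ZT4 and ZT10, overlapped RevDKO at ZT16 and lay above both at ZT22. The share of all genes whose groups of 3 libraries separate at a single time was not counted. At ZT22 the difference between RevScapTKO and RevDKO did not pass (0.35 on the log2 scale, limma adjusted p = 0.679).

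**Figure D1:**
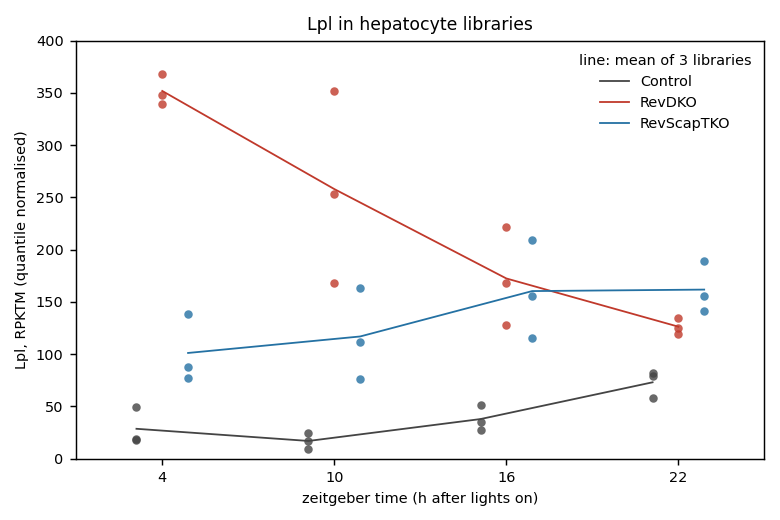
Lpl level (RPKTM, linear axis from 0) in each hepatocyte library against zeitgeber time, with lines through the mean of 3 libraries and points shifted sideways by genotype. The RevDKO libraries lie between 119 and 368 RPKTM, above the Control libraries at 9.28 to 81.6, and the RevDKO line falls through the day while the Control line rises after ZT10.

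Averaged over the day, Lpl was 6.27-fold higher in RevDKO than in Control hepatocytes (95% interval 4.91 to 8.02, difference 2.6 ± 0.17 on the log2(RPKTM + 1) scale, SE, limma adjusted p = 3.39e-12). The separation of the 12 libraries from the other 12 was shared by 0.158% of the genes tested in this direction. Lpl remained 3.90-fold above Control in RevScapTKO (95% interval 3.05 to 4.99, limma adjusted p = 2.34e-10), but was 1.61-fold lower there than in RevDKO (log2 difference -0.69 ± 0.17, SE, adjusted p = 0.00419). These 3 differences share libraries and are not independent of each other. With the macrophage marker score as a covariate, RevDKO minus Control, RevScapTKO minus Control and RevScapTKO minus RevDKO were 2.61, 1.434 and -1.18 on the log2 scale (limma adjusted p = 1.06e-13, 2.02e-05 and 0.000352), and with the endothelial score 2.52, 1.586 and -0.93.

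The excess of Lpl depended on the time of day. RevDKO minus Control was 3.74 at ZT4, 3.89 at ZT10 and 2.174 at ZT16 on the log2 scale (limma, adjusted p = 3.28e-08, 8.1e-09 and 0.000839), but 0.80 at ZT22 (95% interval 0.09 to 1.504, adjusted p = 0.526). Of the 8 genes Lpl alone passed at a single time in this comparison, where 0.585%, 1.2%, 0.300% and 0.488% of all genes did from ZT4 to ZT22. RevScapTKO minus RevDKO was -1.84 at ZT4 (adjusted p = 0.0011), where 9.28% of all genes passed. It was -1.14 at ZT10 (adjusted p = 0.126, but 0.00773 with the macrophage score and 0.0495 with the endothelial score), -0.11 at ZT16 and 0.35 at ZT22, none of which passed (0.908%, 1.37% and 2.35% of all genes called). RevScapTKO minus Control was 1.90, 2.75 and 2.06 at ZT4, ZT10 and ZT16 (adjusted p = 0.00047, 1.81e-06 and 0.000231) and 1.14 at ZT22 (adjusted p = 0.0593, but 0.0375 with a pseudocount of 10), where 18.9%, 4.35%, 3.24% and 3.62% of all genes passed from ZT4 to ZT22. The ZT4 value of the last comparison was 1.13 with the macrophage score (adjusted p = 0.133) and 1.25 with the endothelial score (adjusted p = 0.205), neither past the threshold.

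The daily curve of Lpl itself was altered. A 24-hour cosine through the 4 time means peaked at ZT21.1 in Control, with a peak-to-trough difference of 2.19 on the log2 scale, and at ZT6.82 with 1.432 in RevDKO. In RevScapTKO the peak lay at ZT18.5 with a difference of 0.85. The difference between the RevDKO and Control curves passed the F test of the cosine and sine terms (limma, adjusted p = 0.000906), as did 0.203% of all genes, and Lpl was the only 1 of the 8 genes to do so. RevScapTKO against RevDKO did not pass for Lpl (unadjusted p = 0.000279, adjusted p = 0.554) or for any gene in the table (0.00%), although 674 genes had an unadjusted p under 0.05. RevScapTKO against Control did not pass for any of the 8 genes either (Lpl adjusted p = 0.501, 0.188% of all genes called).

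In RevDKO against Control hepatocytes, 2 of the 8 genes changed in mean level, Lpl upward and Cd36 downward, while 4.43% of all genes were called (2.0% higher and 2.43% lower). The median difference of the 8 was 0.13 on the log2 scale, beside -0.01 for all genes. In RevScapTKO against RevDKO, 5 changed, 1 upward and 4 downward, with 26.2% of all genes called, 13.5% higher and 12.7% lower (median -0.36 beside -0.03). In RevScapTKO against Control, 4 changed, 1 upward and 3 downward, with 35.9% of all genes called, 17.3% higher and 18.7% lower (median -0.16 beside -0.04). 

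**Figure D2:**
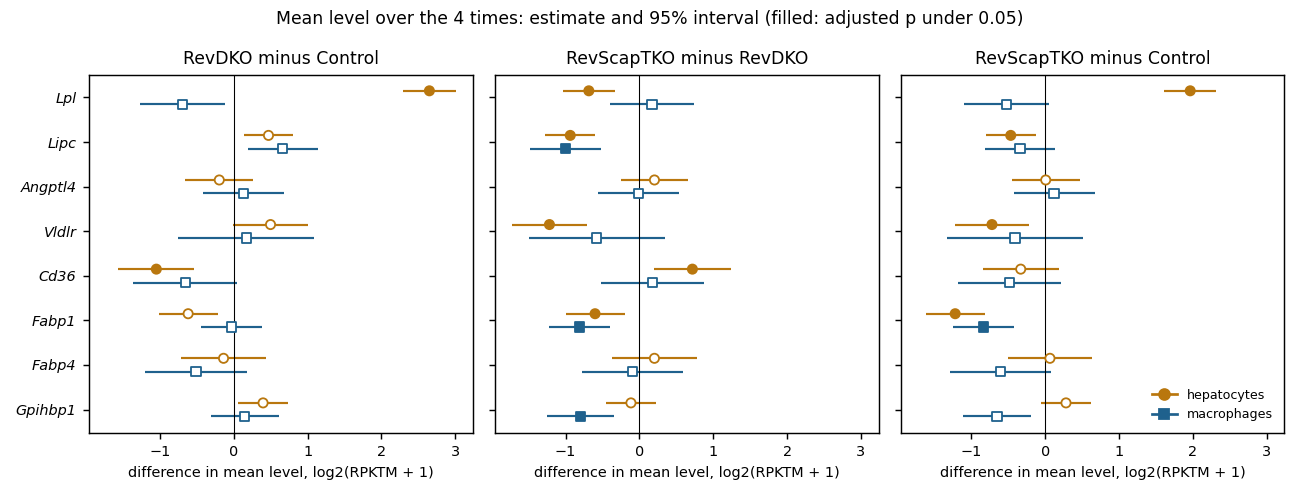
Difference in mean level over the 4 times for each of the 8 genes (horizontal axis, log2(RPKTM + 1)) in hepatocytes (circles) and LMs (squares), with 95% intervals. Filled symbols passed an adjusted p of 0.05, and Lpl in hepatocytes stands at 2.6 and 1.96 in the comparisons with Control.

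Cd36, the fatty acid transporter, was lower in RevDKO hepatocytes. Over the 12 libraries its lowest, median and highest levels were 54.2, 227 and 470 RPKTM in Control, 25.5, 103 and 220 in RevDKO, and 71.0, 180 and 381 in RevScapTKO. The ranges overlapped in all comparisons, but the RevDKO median lay below the Control and RevScapTKO medians. Cd36 was 2.07-fold lower in RevDKO than in Control (log2 difference -1.05 ± 0.25, SE, limma adjusted p = 0.00995). It was 1.64-fold higher in RevScapTKO than in RevDKO (log2 difference 0.72, adjusted p = 0.0352), a call that was lost with the macrophage score (0.21, adjusted p = 0.871), with the endothelial score (0.43, adjusted p = 0.439) and without the filter on low genes (adjusted p = 0.08). RevScapTKO minus Control was -0.33 (95% interval -0.85 to 0.19, adjusted p = 0.318). The ScapKO hepatocyte libraries, on their own scale, held 62.2 to 290 RPKTM with a median of 92.8.

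Fabp1, the main fatty acid carrier of hepatocytes, was lowest in RevScapTKO. At ZT4 it measured 7000, 10848 and 3310 RPKTM in Control, 3408, 3986 and 3141 in RevDKO, and 2537, 705 and 1389 in RevScapTKO. Here the RevScapTKO libraries were lowest and Control and RevDKO overlapped, but the share of all genes separating this way was not counted. Fabp1 mean level was 2.33-fold lower in RevScapTKO than in Control (log2 difference -1.22 ± 0.20, SE, limma adjusted p = 1.79e-05) and 1.52-fold lower than in RevDKO (-0.60, adjusted p = 0.0229), whereas RevDKO minus Control was -0.62 (95% interval -1.02 to -0.22) without passing the threshold (adjusted p = 0.0687). RevDKO minus Control did pass with the macrophage score (-0.57, limma adjusted p = 0.0386) and with only the 2 genotypes fitted (adjusted p = 0.0194). With the macrophage score, RevScapTKO minus RevDKO was -0.04 (adjusted p = 0.971). By time, RevScapTKO minus Control passed at ZT4 (-2.22, adjusted p = 0.000321) and at ZT22 (-1.49, adjusted p = 0.0265), and RevScapTKO minus RevDKO at ZT4 (-1.37, adjusted p = 0.0271). In these 3 tests, 2516, 483 and 1237 of all 13326 genes were called. All 3 of these Fabp1 calls at single times were lost with the macrophage score (adjusted p = 0.109, 0.105 and 0.372) and with the endothelial score (adjusted p = 0.16, 0.0811 and 0.236). The ZT22 call was also lost without the filter on low genes (0.0911) and with only the 2 genotypes fitted (0.083), and the mean level call against RevDKO without the filter (0.051).

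Lipc, hepatic lipase, was also lower in RevScapTKO hepatocytes. Its lowest, median and highest levels were 476, 554 and 767 RPKTM in Control, 679, 790 and 907 in RevDKO, and 190, 434 and 734 in RevScapTKO. RevDKO libraries sat at the upper end with a narrow spread, and RevScapTKO libraries spread widest. Lipc was 1.91-fold lower in RevScapTKO than in RevDKO (log2 difference -0.94 ± 0.17, SE, limma adjusted p = 0.000112) and 1.38-fold lower than in Control (-0.47, adjusted p = 0.0275). At ZT4 alone, RevScapTKO minus RevDKO was -1.14 (adjusted p = 0.028), a call lost with the macrophage score (-0.68, adjusted p = 0.357), with the endothelial score (-1.01, adjusted p = 0.168) and with only the 2 genotypes fitted (adjusted p = 0.0765). The mean level call against Control was likewise lost with only the 2 genotypes fitted (adjusted p = 0.0654) and without the filter on low genes (adjusted p = 0.0608). RevDKO minus Control was 0.47 (95% interval 0.13 to 0.81, adjusted p = 0.11) and passed when RevScapTKO libraries were left out of the fit (adjusted p = 1.49e-05).

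Vldlr, the receptor for triglyceride-rich particles, was a low transcript that fell in RevScapTKO. Its lowest, median and highest levels were 5.77, 14.97 and 36.1 RPKTM in Control, 12.2, 22.5 and 36.3 in RevDKO, and 3.44, 9.71 and 15.3 in RevScapTKO. At ZT16, where RevScapTKO lay furthest below RevDKO, the values were 27.5, 27.3 and 35.0 in RevDKO against 3.86, 12.2 and 8.01 in RevScapTKO. Vldlr was 2.33-fold lower in RevScapTKO than in RevDKO (log2 difference -1.22 ± 0.25, SE, limma adjusted p = 0.000521) and 1.647-fold lower than in Control (-0.72, adjusted p = 0.0226). At ZT16 the difference from RevDKO was -1.88 (adjusted p = 0.045, 1.37% of all genes called). That call was lost under 6 settings (adjusted p from 0.0509 to 0.135), namely a pseudocount of 0.1, no filter, all transcripts, no trend, the macrophage score and the endothelial score. In mean level, RevDKO minus Control was 0.50 (95% interval -0.00405 to 1.001, adjusted p = 0.301). Since 1 is added before the logarithm, folds of so low a transcript are understated.

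The macrophage marker score bore on several of these calls in RevScapTKO, the genotype whose hepatocyte libraries held more macrophage, endothelial and stellate marker RNA. With that score in the fit, RevScapTKO minus RevDKO was -0.04 for Fabp1 (limma adjusted p = 0.971), -0.51 for Lipc (adjusted p = 0.246) and -1.27 for Vldlr (adjusted p = 0.0365). RevScapTKO minus Control was -0.61 for Fabp1 (adjusted p = 0.144), 0.00116 for Lipc (adjusted p = 0.999) and -0.78 for Vldlr (adjusted p = 0.229). With the endothelial score, RevScapTKO minus RevDKO passed for Lipc (-0.84, adjusted p = 0.00796) and Vldlr (-1.13, adjusted p = 0.0184) but not for Fabp1 (-0.35, adjusted p = 0.397), and RevScapTKO minus Control passed for none of the 3. Because the scores differ between genotypes, genotype and admixed RNA cannot be fully told apart in these fits.

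**Figure D3:**
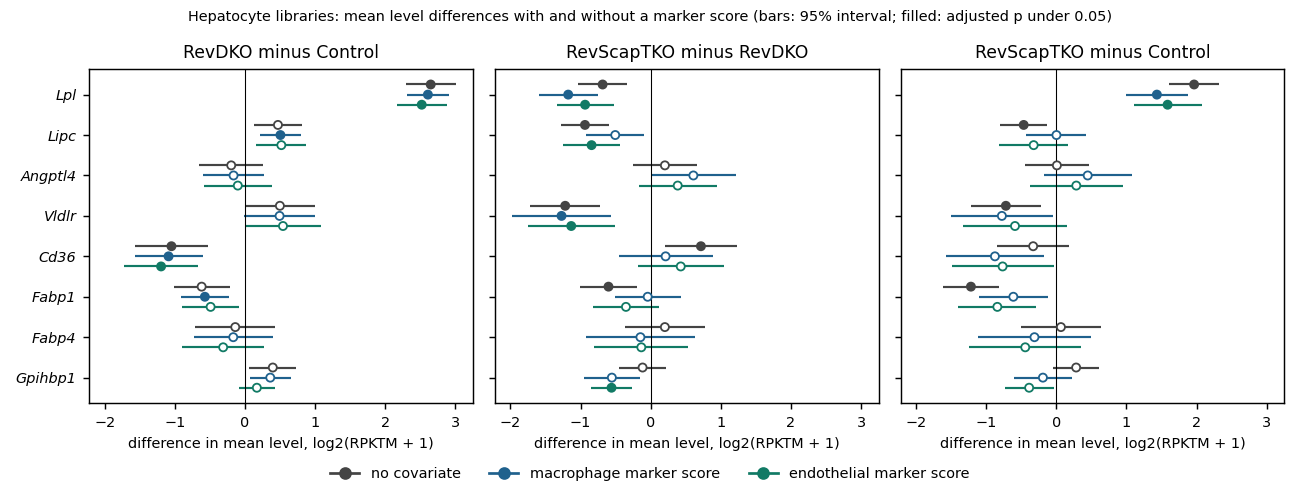
Mean level differences in hepatocytes (log2(RPKTM + 1), bars 95% intervals, filled symbols past an adjusted p of 0.05) without a covariate, with the macrophage marker score and with the endothelial marker score. Lpl stays filled in all 3 comparisons and 3 fits, while Fabp1, Cd36 and Lipc move toward 0 in RevScapTKO minus RevDKO with the macrophage score.

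Angptl4, Fabp4 and Gpihbp1 passed no mean level test in hepatocytes. Angptl4 spanned 129 to 566 RPKTM in Control, 92.3 to 456 in RevDKO and 90.2 to 636 in RevScapTKO, and its differences lay between -0.20 and 0.20 on the log2 scale, with intervals between -0.65 and 0.66. Fabp4 spanned 3.15 to 36.4, 2.57 to 22.2 and 5.31 to 35.97 RPKTM, with differences between -0.14 and 0.20. Gpihbp1, the endothelial anchor of lipoprotein lipase, spanned 13.6 to 67.2, 18.1 to 76.1 and 13.0 to 75.7 RPKTM, and RevDKO minus Control was 0.40 (95% interval 0.06 to 0.73, limma adjusted p = 0.189). With the endothelial score as a covariate that value was 0.17 (adjusted p = 0.546), and RevScapTKO minus RevDKO passed at -0.56 (adjusted p = 0.0136).

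**Figure D4:**
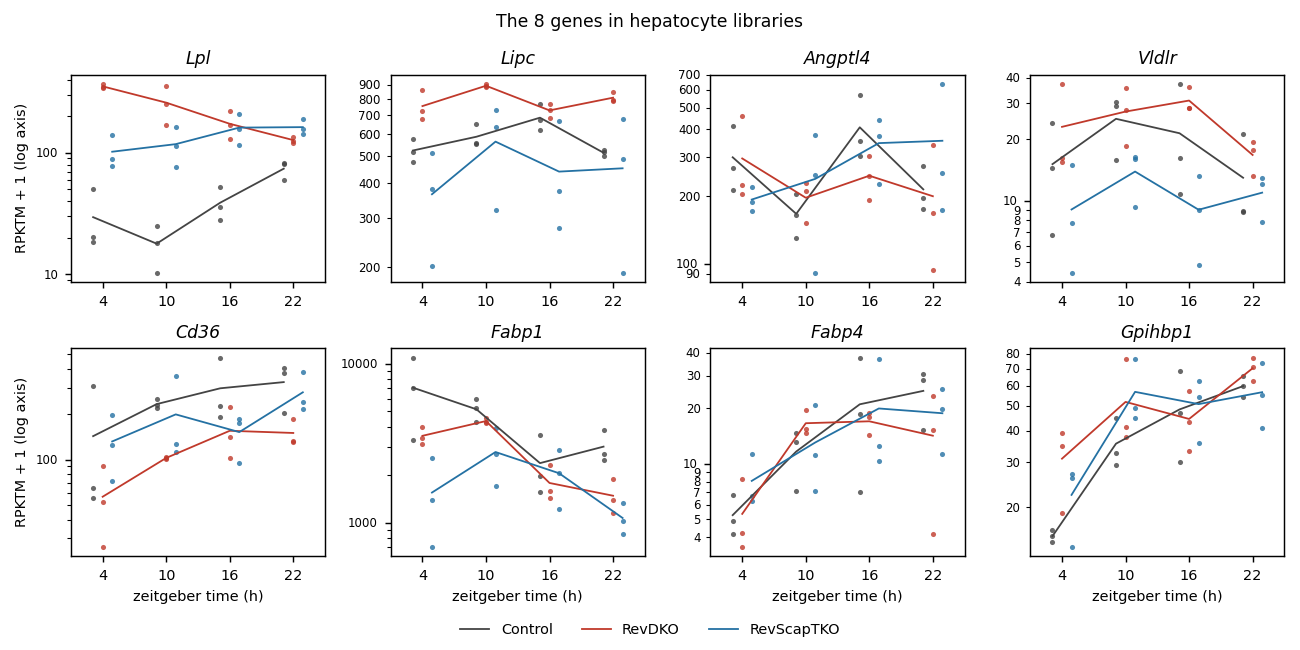
Level plus 1 (RPKTM, log axis, scale differing between panels) of the 8 genes in every hepatocyte library by zeitgeber time, with lines through group means. The RevDKO libraries of Lpl lie above Control, the Vldlr means are lowest in RevScapTKO at each time, and the Gpihbp1 and Fabp4 means are lowest at ZT4 in each genotype.

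Rhythms within each genotype were then called with JTK_CYCLE, a rank test against cosine-shaped patterns, with each series of 4 times entered 2 times in a row. Entering the same 4 times again lowers p without adding data. In Control hepatocytes, 4 of 8 genes were rhythmic (30.1% of all genes tested): Lpl (peak ZT21, highest over lowest time mean 4.34), Fabp1 (ZT6, 2.983), Fabp4 (ZT18, 5.57) and Gpihbp1 (ZT18, 4.08). All of these also passed with the series entered once (10.4%). Gpihbp1, for instance, rose from 13.6, 14.4 and 15.2 RPKTM at ZT4 to 59.0, 53.1 and 64.2 at ZT22. The summed endothelial markers of the Control hepatocyte libraries ran from 583 to 2957 RPKTM, and their part in this rhythm was not tested.

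In RevDKO hepatocytes, 4 of 8 were rhythmic (30.9%), namely Lpl (ZT9, 2.79), Vldlr (ZT15, 1.90), Cd36 (ZT18, 2.77) and Fabp1 (ZT9, 2.95), of which Cd36 and Fabp1 passed with the series entered once (9.34%). In RevScapTKO hepatocytes, Lpl (ZT18, 1.60), Fabp1 (ZT12, 2.6) and Fabp4 (ZT18, 2.67) were rhythmic (22.3%), and none passed with the series entered once (3.32%). A gene called in one genotype and not in another is not shown to differ between them. The 24 h regression in limma called the same 4 genes in Control (8.29% of all genes), Lpl and Fabp1 in RevDKO (4.08%) and none in RevScapTKO (0.683%) or ScapKO (1.85%). Of the 8 genes in hepatocytes, the test of the difference in curves passed for Lpl in RevDKO minus Control alone. Lpl in ScapKO hepatocytes, at 16.5 to 115 RPKTM, was rhythmic with a peak at ZT6 (19.9% of all genes) but not with the series entered once (5.16%).

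The genes whose 12 group means in hepatocytes ran most like those of a changed gene were listed by Pearson r, as a description of points that share libraries and normalisation. For Lpl they were Nfil3 (0.95), Chic1 (0.93) and Loxl4 (0.93). For Cd36 they were Ezr, St6galnac4 and B3galnt2 (0.91, 0.91 and 0.90), and for Fabp1 Cyb5a, Mrpl11 and Msrb1 (0.95, 0.95 and 0.95). Lipc ran most like B130034C11Rik, Qdpr and LOC102631993 (0.94, 0.93 and 0.93), and Vldlr like Hgd, Map3k15 and Cox7c (0.93, 0.91 and 0.91).

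In LMs, the same genes were less clearly separated. The lowest, median and highest Lpl levels were 93.0, 298 and 576 RPKTM in Control, 59.8, 177 and 592 in RevDKO, and 63.9, 198 and 636 in RevScapTKO, on a scale normalised apart from that of hepatocytes. The 3 ranges overlapped almost fully. RevDKO minus Control was -0.69 for Lpl (95% interval -1.27 to -0.12, limma unadjusted p = 0.0187, adjusted p = 0.274), -0.31 with the macrophage marker score as a covariate (a fit added after the data were seen), and none of the 8 genes passed (0.574% of all genes called, 0.402% higher and 0.172% lower, median 0.05 beside -0.04). Cd36 spanned 167 to 440, 35.2 to 318 and 17.7 to 619 RPKTM, and Angptl4 22.1 to 118, 32.8 to 133 and 16.9 to 169. Vldlr was low in LMs, with medians of 2.62, 2.7 and 1.60 RPKTM.

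Fabp1, Lipc and Gpihbp1 were lower in RevScapTKO than in RevDKO LMs, 3 of 8 against 3.0% of all genes (1.23% higher and 1.78% lower). The median of the 8 differences was -0.34 beside 0.04 for all genes. Fabp1 measured 110 to 330 RPKTM (median 206) in RevScapTKO, 225 to 689 (median 353) in RevDKO and 103 to 667 (median 423) in Control. Lipc measured 26.6 to 124 (median 71.0), 56.2 to 351 (median 126) and 34.4 to 262 (median 73.7) in the same order, and Gpihbp1 22.4 to 83.2 (median 43.0), 28.4 to 159 (median 100.7) and 34.1 to 140 (median 74.3). All of these ranges overlapped. The differences were -0.81 for Fabp1 (limma, adjusted p = 0.019), -1.003 for Lipc (adjusted p = 0.0103) and -0.80 for Gpihbp1 (adjusted p = 0.0434). Gpihbp1 lost its call when any 1 of 22 of the 36 libraries was left out (adjusted p up to 0.106) and with the endothelial score (-0.63, adjusted p = 0.0584). The Gpihbp1 call was also lost with a pseudocount of 0.1 (adjusted p = 0.0526), no filter (0.0823), no trend (0.0658) and only the 2 genotypes fitted (0.0829).

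Fabp1 and Lipc are chiefly hepatocyte transcripts, and the hepatocyte marker score of LM libraries was 11.0 in Control, 11.3 in RevDKO and 10.8 in RevScapTKO. With that score as a covariate, RevScapTKO minus RevDKO was -0.91 for Fabp1 (limma, adjusted p = 0.0105), -0.77 for Lipc (adjusted p = 0.0455) and -0.87 for Gpihbp1 (adjusted p = 0.0239). The score follows the amount of hepatocyte RNA and not a change in what that RNA holds. In hepatocyte libraries the same comparison gave -0.60 for Fabp1, -0.94 for Lipc and -0.12 for Gpihbp1. Whether the LM differences arose in macrophages or in admixed hepatocyte RNA was not tested. Without the 6 LM libraries of low correlation, Fabp1 in LMs was -0.83 (limma, adjusted p = 0.098) and no longer passed. Against Control, Fabp1 alone of the 8 genes was lower in RevScapTKO LMs (-0.84, adjusted p = 0.0135, 3.76% of all genes called, 2.38% higher and 1.38% lower). Genes most like them over the 12 LM group means were Cyp4f14, Cyp2c67 and Gstk1 for Lipc (0.96, 0.95 and 0.95), Utp14b, Mycn and Fam126b for Fabp1 (0.93, 0.88 and 0.87), and Gchfr, Cd55 and Crim1 for Gpihbp1 (0.93, 0.92 and 0.92). Cyp4f14 and Cyp2c67 encode cytochromes P450 of hepatocytes.

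**Figure D5:**
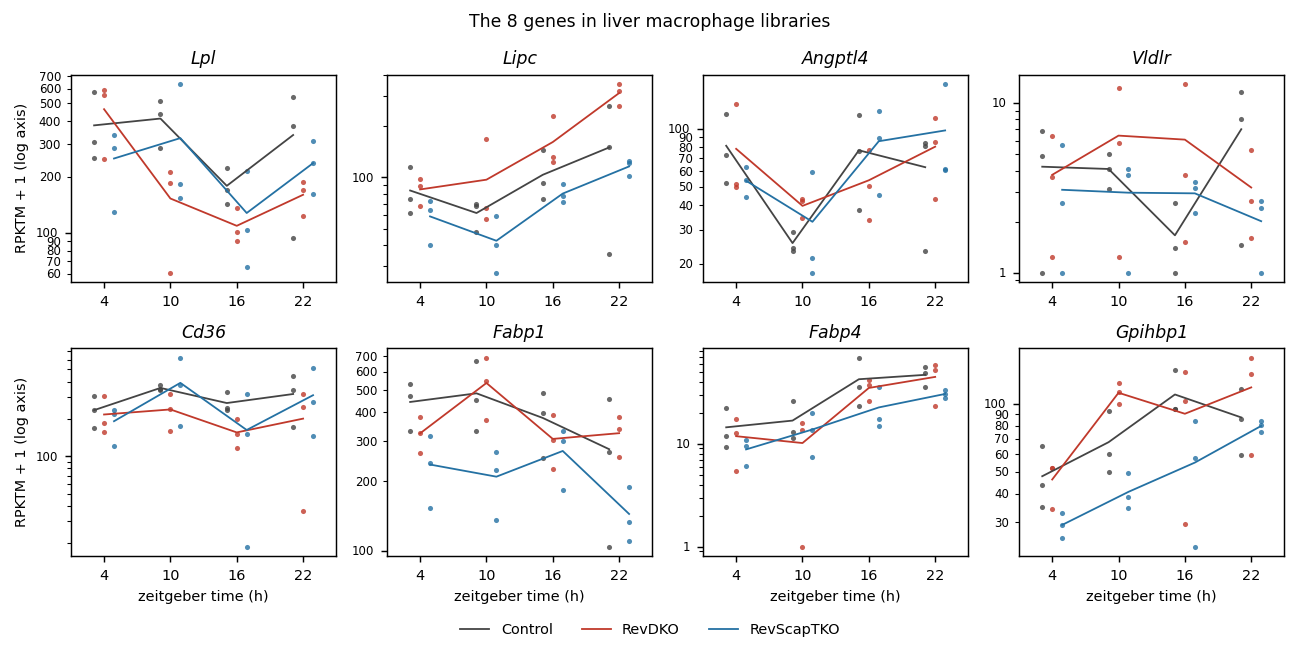
Level plus 1 (RPKTM, log axis, scale differing between panels) of the 8 genes in every LM library by zeitgeber time, with lines through group means. Genotypes overlap for most genes, Fabp1 and Gpihbp1 run lowest in RevScapTKO, and the means of Lipc, Fabp4 and Gpihbp1 are higher at ZT22 than at ZT4 in each genotype.

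No gene of the 8 passed at a single time in LMs. From ZT4 to ZT22, 0.00717%, 0.0789%, 0.043% and 0.00% of all genes passed in RevDKO minus Control, 0.172%, 0.151%, 0.215% and 0.301% in RevScapTKO minus RevDKO, and 0.33%, 0.201%, 0.186% and 0.136% in RevScapTKO minus Control. None of the 8 passed for a changed daily curve either, where no gene of the whole table passed the latter (0.00% in each comparison, with 767, 498 and 238 genes at an unadjusted limma p under 0.05). JTK_CYCLE called Lipc, Fabp4 and Gpihbp1 in Control (22.2% of all genes), Lpl, Lipc, Angptl4 and Fabp4 in RevDKO (30.1%), and Lipc, Angptl4, Fabp4 and Gpihbp1 in RevScapTKO (16.9%). With the series entered once, Gpihbp1 remained in Control (2.91%), Lpl, Lipc and Fabp4 in RevDKO (5.34%) and Lipc in RevScapTKO (2.57%). The limma regression called Lipc and Fabp4 in RevDKO (2.53%) and none of the 8 in Control (0.0502%), RevScapTKO (0.0789%) or ScapKO (0.00%). Lipc peaked at ZT21 in all 3 genotypes. Lpl in RevDKO LMs peaked at ZT6, with 551, 592 and 249 RPKTM at ZT4 and 134, 100 and 89.5 at ZT16.

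ScapKO LM libraries, on their own scale, held 766 to 4761 RPKTM of Lpl (median 3556) and 632 to 1502 of Cd36 (median 1128), with a macrophage marker score of 12.3. One of them, replicate 2 at ZT22, stood apart with the lowest Lpl (766), the highest Lipc (529), Gpihbp1 (311) and Fabp4 (80.1), a macrophage score of 10.4 and an endothelial score of 10.4. Replicate 2 at ZT22 of the ScapKO hepatocytes likewise had the highest Lpl (115), Cd36 (290) and Gpihbp1 (104), with an endothelial score of 8.77. JTK_CYCLE called Lipc and Fabp4 in ScapKO LMs (23.2% of all genes), and neither with the series entered once (3.63%).

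Of 36 further genes of the same pathways, taken from fixed lists, 35 were tested in hepatocytes. In RevDKO against Control, where 4.43% of all genes were called, 4 changed, 2 upward and 2 downward: Ppard, a fatty acid-sensing nuclear receptor, by 2.10, the carrier Fabp5 by 1.04, the receptor Pparg by -1.03 and endothelial lipase Lipg by -0.87 on the log2 scale (limma, adjusted p = 1.79e-09, 0.0247, 0.0104 and 0.0428). In RevScapTKO against RevDKO, 21 changed, 19 of them downward, where 26.2% of all genes were called and 12.7% were lower. In RevScapTKO against Control, 22 changed, 21 of them downward, where 35.9% of all genes were called and 18.7% were lower. The lower genes included 4 of 6 lipases in both comparisons, and 8 and then 10 of 14 genes of fatty acid uptake and activation. The macrophage, endothelial and stellate marker scores were higher in the same RevScapTKO libraries (7.22, 7.21 and 7.34, against 6.09, 6.75 and 6.21 in RevDKO), and their part in these counts was not tested.

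Acsl3, which activates long-chain fatty acids, differed by -3.72 and the lipid droplet hydrolase Pnpla3 by -2.66 on the log2 scale between RevScapTKO and RevDKO hepatocytes (limma, adjusted p = 2.99e-17 and 1.08e-06). Against Control, RevScapTKO differed by -3.83 for Acsl3 and by -3.11 for Lipg. Fabp7 (0.84) and Sort1 (0.63) were the called rises against RevDKO, and Fabp7 (0.91) the called rise against Control. In LMs, 1 of 36 changed in RevDKO against Control (Ppard, 2.07, adjusted p = 0.000222), where 0.574% of all genes were called. In RevScapTKO LMs, 9 fell against RevDKO (3.0% of all genes called, 1.78% lower) and 6 fell against Control (3.76% called, 1.38% lower). Ppard was also called upward in RevDKO hepatocytes. Hepatocyte markers had median sums of 85921 RPKTM in RevDKO and 99654 in RevScapTKO LM libraries, against 9968 and 10702 for macrophage markers. The part of admixed hepatocyte RNA in these LM calls was not tested. None of the further genes passed for a changed daily curve in either preparation.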

How the data were processed

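Hepatocytes and LMs were isolated from perfused livers and total RNA was sequenced as stranded, rRNA-depleted libraries. Per the labels and the study's methods, the authors aligned reads to mm9 with STAR and measured RefSeq transcripts with HOMER (versions, and whether counting used strand, not given in the sources used here). The deposited values are RPKM scaled by 10 (RPKTM), quantile normalised by the authors over the libraries of each of 4 tables, so every library of a table has the same distribution. Depth is unknown, which limits how precisely low genes such as Vldlr are known.

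Computed here, in R 4.3.3 with limma 3.58.1 and Python 3.11.15 (numpy 2.4.6, pandas 2.3.3, matplotlib 3.10.9): 1 transcript a gene, kept where at least 3 libraries exceeded 5 RPKTM (13326 and 13947 genes), log2(RPKTM + 1), 1 mean per genotype and time, and a moderated test with a mean-variance trend over the 36 libraries of a table, with Benjamini-Hochberg adjustment over all genes. Folds are on that scale and understate low genes. Changed curves were tested by an F test of 24 h cosine and sine terms. JTK_CYCLE was rewritten with periods of 18 and 24 h, a highest over lowest ratio above 1.5 and 7 patterns, with peaks in steps of 3 h from sampling every 6 h. Scripts were tested on simulated data. The 8 genes, gene lists and tests were chosen with earlier results of these data known. All 8 genes are described in every comparison, and the most like genes and the 2 largest rises and falls of the lists are named by rule. Alternatives were other pseudocounts, filters, transcripts, model settings, marker scores, a replicate block and leaving out each library. Promoters end at the earliest annotated start within 300 bases. The check of replicate numbers stands with the sensitivity results.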

Additional observations from a re-analysis of the deposited data

Results flagged for a closer look

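Lpl in hepatocytes was marked because its RevDKO minus Control difference itself differed between times of day (limma F test of the 24 h terms, adjusted p = 0.000906). The difference was 3.74 at ZT4, 3.89 at ZT10, 2.174 at ZT16 and 0.80 at ZT22 on the log2 scale. The ZT22 difference did not pass (limma, adjusted p = 0.526), with libraries at 119, 135 and 125 RPKTM in RevDKO and 79.3, 81.6 and 58.1 in Control. The difference in curves passed in all settings tried and with each library left out in turn.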

How the results depend on the processing

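Among the 8 genes, 453 of 480 mean level results under other settings kept direction and side of the threshold, 20 lost the call, 6 gained it and 1 reversed, which was Lipc in RevScapTKO minus Control hepatocytes (0.00116 with the macrophage marker score). Uncalled values that changed sign were counted as kept (24). All 528 changed-curve results kept theirs. For mean level in hepatocytes, RevDKO minus Control went from 2 to 4 called genes with the macrophage score or with only the 2 genotypes fitted, RevScapTKO minus RevDKO from 5 to 3 with no filter and 2 with the macrophage score, and RevScapTKO minus Control from 4 to 1 with either score. At single times, these were 3 to 6 (only the 2 genotypes), 4 to 2 (macrophage score) and 5 to 2 (either score). In LMs, RevScapTKO minus RevDKO at single times went from 0 to 1 with the endothelial score, and mean level in RevScapTKO minus Control from 1 to 2 without the 6 libraries of low correlation, a setting chosen after the data were seen. The shares of all genes called under these settings, or with a library left out, are not given here. Whether the counts moved with the whole table therefore cannot be read from them. The causes were not tested.

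Rhythm calls were the least stable. With the series entered once and Benjamini-Hochberg adjustment over genes, 0 of 8 passed in all 8 genotype and cell combinations. Under that setting 8 of 13090 genes passed in ScapKO hepatocytes and 0 of all genes in the other combinations. The 0 of 8 is therefore no result about these genes in particular. Entered once without it, counts moved from 4 to 2 in RevDKO hepatocytes, from 3 to 0 in RevScapTKO hepatocytes, from 3 to 1 in Control LMs, from 4 to 1 in RevScapTKO LMs, and to 0 in both ScapKO preparations (from 1 and 2). The limma 24 h regression gave 2 in RevDKO hepatocytes and 2 in RevDKO LMs, and 0 in RevScapTKO and ScapKO of both preparations and in Control LMs. With a replicate block in that regression, RevDKO hepatocytes gave 2, and RevScapTKO and ScapKO of both preparations and Control LMs gave 0. In RevDKO LMs, Lpl failed without the block (limma, adjusted p = 0.088) and passed with it. Of the JTK_CYCLE calls in RevDKO LMs, Angptl4 alone failed with the block (limma, adjusted p = 0.271).

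Replicate numbers were not taken to pair the samples, since not every pair correlated above 0.1: correlations of deviations between same-numbered libraries ran from -0.273 to 0.534 in hepatocytes (median 0.0191, other numbers -0.0107), with 45 of 198 above 0.1, and from -0.199 to 0.53 in LMs (median 0.0829, other numbers -0.0399), with 85 of 198 above 0.1. The block changed no mean level or changed-curve call, and Vldlr in RevScapTKO minus RevDKO at ZT4 gained one (-1.39, adjusted p = 0.0457, limma).

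Leaving out 1 library at a time kept 1676 of 1728 mean level results (53 uncalled ones changed sign), lost 44 and gained 8. In hepatocytes, called genes ranged from 2 to 3, 3 to 5 and 3 to 4 for mean level in the comparisons of RevDKO with Control, RevScapTKO with RevDKO and RevScapTKO with Control. At single times they ranged from 3 to 3, 2 to 5 and 4 to 6, and for changed curves from 1 to 1, 0 to 0 and 0 to 0. In LMs the ranges were 0 to 2, 2 to 3 and 1 to 2 for mean level, 0 to 1, 0 to 0 and 0 to 0 at single times, and 0 to 0 for changed curves. Rhythm counts ranged from 4 to 5, 3 to 5 and 1 to 5 in Control, RevDKO and RevScapTKO hepatocytes, from 2 to 6, 3 to 6 and 3 to 4 in LMs, and from 0 to 2 and 2 to 5 in ScapKO hepatocytes and LMs. In RevScapTKO minus RevDKO hepatocytes, Fabp1 lost its call without RevScapTKO replicate 2 at ZT4, ZT10 or ZT16 (adjusted p 0.0538 to 0.0559), and Cd36 without any of 11 libraries (adjusted p up to 0.0866). In RevScapTKO minus Control, Lipc lost its call without RevScapTKO replicate 2 at ZT4, ZT10 or ZT22 or replicate 3 at ZT16, and Vldlr without Control replicate 1 at ZT4, 3 at ZT16 or 2 at ZT22, or RevScapTKO replicate 3 at ZT4. In RevDKO minus Control, Fabp1 gained a call without Control replicate 3 at ZT4 or 2 at ZT16, or RevScapTKO replicate 1 or 2 at ZT4, and Lipc without RevScapTKO replicate 2 at ZT22. In LMs without Control replicate 3 at ZT22, Lpl (-0.88, adjusted p = 0.0488) and Lipc (0.82, adjusted p = 0.0295) passed in RevDKO minus Control, and without RevScapTKO replicate 1 at ZT16 Gpihbp1 passed against Control (adjusted p = 0.048).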
